A study of Arabidopsis thaliana with 12 samples.

Results

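Chloroplast-encoded genes are those carried by the plastid genome, and their transcripts took more than 53% of the counts of every library described here. The count tables listed 133 features whose identifier starts with ATCG, the prefix of the chloroplast genome, among 34262 features in all. The 116 with at least 100 counts summed over the 12 libraries are described here as the members. Of the other 17 identifiers, 6 had no count in any library and 11 had 1 to 99 counts. The highest of those left out were ATCG01300 with 45 counts and ATCG01270 with 31, and the lowest of those kept were ATCG01230 with 108 and ATCG01260 with 114. All 116 members passed the filter on low counts and entered the tests.

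A plastid genome encodes core proteins of both photosystems, of the cytochrome b6f complex and of the ATP synthase, the large subunit of Rubisco, subunits of an NADH dehydrogenase-like complex, parts of the plastid ribosome, its transfer and ribosomal RNAs, and the core of a bacterial-type RNA polymerase. That polymerase needs sigma factors encoded in the nucleus to find its promoters, and a phage-type polymerase encoded in the nucleus transcribes plastid genes as well. Many plastid genes are transcribed together in long RNAs that are then cut, edited and protected by nuclear RNA-binding proteins, so that transcript levels depend on RNA stability as well as on transcription. The RefSeq annotation of this genome lists 129 plastid genes, of which 85 encode proteins, 37 transfer RNAs and 7 ribosomal RNAs. It does not pair them with ATCG identifiers, except for 6 members whose product it names, so the other members are given by identifier without a gene name or role.

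The samples were whole seedlings of Arabidopsis thaliana, either wild type (Col-0, called WT) or pot1b mutants. They were 6 days old, grown on MS medium, and treated for 6 h with Zeocin at 20 µM, which breaks DNA as bleomycin does, or left without it (mock). Each of the 4 groups, named WT or pot1b with mock or Zeocin, had 3 libraries, made from total RNA depleted of ribosomal RNA. The protein missing or altered in the mutant belongs, with POT1a, to a family known for its role at telomeres. The labels name neither the allele nor the origin of the replicates, so that p-values reflect the spread among these libraries alone, and this spread may be technical.

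Library totals ran from 9607269 to 24587168 counts and chloroplast totals from 5464157 to 13626746. POT1B, the mutated gene, stood at 2.95 to 5.35 CPM, which here are TMM-scaled counts per library total, in the WT libraries, at 1.09 to 2.82 for pot1b mock and at 1.66, 0.700 and 4.21 for pot1b Zeocin. The library labelled pot1b Zeocin replicate 3 therefore lay within the WT range; the gene overlaps another one, NHL3, and the strand setting of the counting is not given in the sources used here, so this checks the label only weakly. Green tissue markers were high in all libraries (RBCS1A at 1652 to 3052 CPM). Root markers differed in level: PYK10 stood at 354 to 692 CPM, PHO1 at 19.0 to 46.7 and CASP1 at 5.05 to 9.31. COBL9, the lowest root marker, stood at 0.263 to 0.985 CPM (3 to 20 counts). The seed storage gene CRA1 had at most 17 counts. WT Zeocin replicate 1 stood apart: its TMM factor was 1.15 against 0.930 to 1.03 in the others, and it held the highest or the lowest of the 12 values for 51 of the 116 members (44.0%, against 34.8% of all tested genes). The library labelled pot1b Zeocin replicate 3 did so for 38 members (32.8%, against 19.5%).

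The total chloroplast share of the libraries did not differ between genotypes or treatments by more than the spread between replicates. The share was 55.4%, 56.9% and 56.2% for WT mock (replicates 1, 2 and 3), 53.0%, 57.7% and 56.9% for WT Zeocin, 55.5%, 57.7% and 56.5% for pot1b mock, and 57.3%, 55.8% and 58.5% for pot1b Zeocin. The group means were 56.2% ± 0.727, 55.9% ± 2.51, 56.6% ± 1.14 and 57.2% ± 1.34 (SD, n = 3), and all 4 groups overlapped. Zeocin minus mock was 0.151 percentage points (exact two-sided permutation test within genotype, p = 0.88) and pot1b minus WT was 0.857 (exact permutation test within treatment, p = 0.385); the smallest p that this design allows is 0.005. The mitochondrial share was 0.546% to 0.751% of a library. In whole seedlings, fewer green cells and less plastid RNA per cell cannot be told apart.

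A single feature, ATCG00020, held most of these counts. It took 53.2%, 55.9% and 56.3% of the chloroplast counts in WT mock, 50.3%, 58.6% and 56.1% for WT Zeocin, 59.5%, 63.9% and 59.8% for pot1b mock, and 57.3%, 54.8% and 57.1% for pot1b Zeocin. All 3 pot1b mock libraries thus lay above every other library, WT Zeocin spanned the widest range, and WT Zeocin replicate 1 was the lowest. The group means were 55.1% ± 1.68 for WT mock, 55.0% ± 4.24 for WT Zeocin, 61.1% ± 2.45 for pot1b mock and 56.4% ± 1.41 for pot1b Zeocin (SD, n = 3).

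Across both treatments ATCG00020 took 3.67 percentage points more of the chloroplast counts in pot1b than in WT (exact two-sided permutation test, p = 0.055), which missed the threshold. Under mock the difference was 5.94 (exact permutation p = 0.1, the smallest that 3 against 3 can give), and under Zeocin it was 1.40 (exact p = 0.8). Leaving out single libraries moved the pooled difference between 2.50, without WT Zeocin replicate 1, and 4.57, without WT Zeocin replicate 2, with exact permutation p-values from 0.015 to 0.15. Zeocin minus mock was -2.41 points over both genotypes (exact permutation p = 0.205), made up of -0.140 in WT (exact p = 0.9) and -4.67 in pot1b (exact p = 0.1). The difference between these 2 effects was -4.53 points (exact permutation p = 0.245). On the CPM scale ATCG00020 was not called in any contrast (lowest edgeR adjusted p = 0.25).

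**Figure D1:**
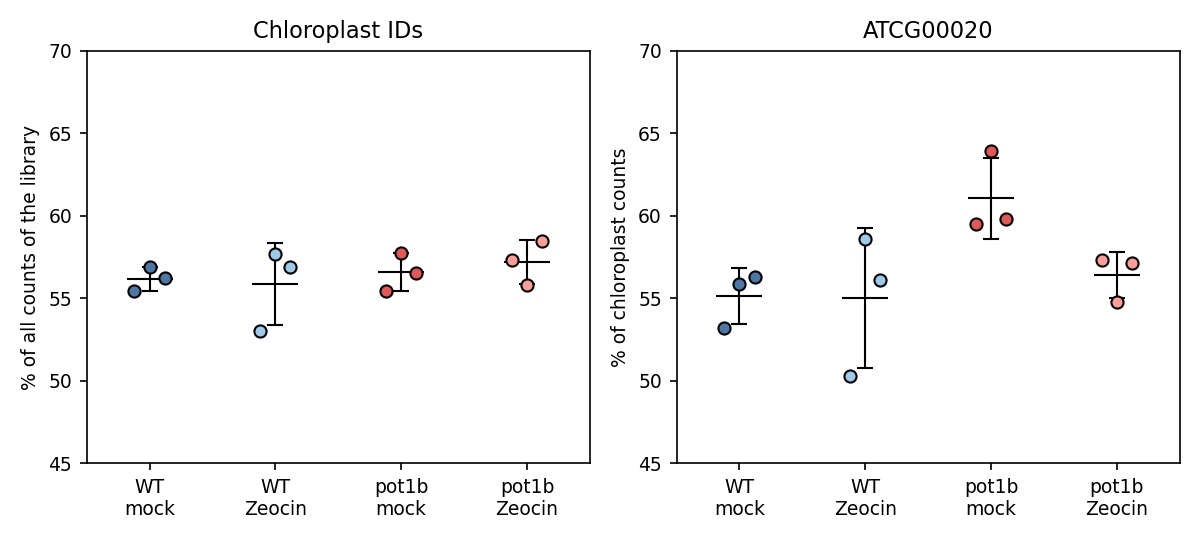
Left, counts on chloroplast identifiers as a percentage of all counts of a library; right, counts on ATCG00020 as a percentage of chloroplast counts. Points are the 3 libraries of a group in replicate order, with the group mean and SD; both axes start at 45%. The chloroplast share runs from 53.0% to 58.5% with overlapping groups, and the 3 pot1b mock libraries are the highest for ATCG00020, at 59.5% to 63.9%.

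The remaining counts were also uneven. The 6 members with the highest mean share held 83.2% of the chloroplast counts together: ATCG00020 (56.9%), ATCG00490 (17.2%), ATCG00340 (2.58%), ATCG00280 (2.52%), ATCG00350 (2.28%) and ATCG00680 (1.77%). Shares of counts depend on transcript length, which the files do not give, so they do not rank transcript numbers between genes. In all, 9 members exceeded 1% of the chloroplast counts, 31 were below 0.01%, and the median was 0.0621%.

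ATCG00490, the second in share, held 18.5%, 18.2% and 17.7% of chloroplast counts in WT mock, 18.1%, 18.3% and 17.9% for WT Zeocin, 16.1%, 15.4% and 15.1% for pot1b mock, and 17.0%, 18.3% and 16.0% for pot1b Zeocin. The pot1b mock libraries were below all 6 WT libraries. The change of this share in pot1b mock, -0.22 log2 (SE 0.09), was not called (edgeR adjusted p = 0.16), nor was the change of its CPM, -0.15 (SE 0.09, adjusted p = 0.3).

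Untreated pot1b seedlings held lower levels of 11 chloroplast features than untreated WT, by 0.29 to 0.56 on the log2 scale, and higher levels of 2. A member was called at an edgeR adjusted p under 0.05 over all 19596 tested genes. On the CPM scale 13 of 116 members were called between pot1b mock and WT mock, 11 lower and 2 higher. Over all tested genes, 5.83% were called lower and 7.25% higher. The members' median change was 0.07 log2, against 0.01 over all tested genes, with 72 members above 0 and 44 below. Single libraries decide the members' median here: it was -0.02 without pot1b mock replicate 3, with 55 members above 0 and 61 below, 0.14 without pot1b mock replicate 2 and 0.16 without WT mock replicate 1. The groups did not overlap for 15 members that were lower and 13 that were higher, in all 24.1% of the members. Over all tested genes 16.9% did not overlap and were lower, and 17.7% did not overlap and were higher. Such cases were thus less frequent among the members than among all tested genes.

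ATCG00170 had the lowest p. Its level was 554, 532 and 494 CPM in WT mock, 546, 430.4 and 433 for WT Zeocin, 351, 335 and 384 for pot1b mock, and 466, 474 and 469 for pot1b Zeocin. The 3 pot1b mock libraries were the lowest of the 12. The change in pot1b mock was -0.56 log2 (SE 0.09, adjusted p = 0.00014), from 526.7 ± 30.7 to 356 ± 25.1 CPM (SD, n = 3).

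Features with neighbouring identifiers were lower as well. ATCG00190 held 409, 414 and 379 CPM in WT mock and 304, 287 and 329.8 for pot1b mock, a change of -0.39 log2 (SE 0.08, adjusted p = 0.0015). ATCG00160 held 175, 196 and 164 CPM in WT mock and 123, 131 and 134 for pot1b mock, a change of -0.46 (SE 0.10, adjusted p = 0.0026). In both, every pot1b mock library was below every WT mock library. ATCG00180, whose number falls between these, had 745 ± 42.1 CPM in WT mock and 629.6 ± 42.0 in pot1b mock (SD, n = 3) and was not called (-0.24, SE 0.09, adjusted p = 0.078).

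The other large decreases were in abundant features. ATCG00350 held 15105, 14352 and 14905 CPM in WT mock and 10653, 10329 and 10932 for pot1b mock, a change of -0.48 log2 (SE 0.08, adjusted p = 0.0002). Its neighbour by number, ATCG00340, held 16908, 16047 and 16000.0 CPM in WT mock and 12162, 10919.6 and 12174 for pot1b mock, a change of -0.47 (SE 0.09, adjusted p = 0.00077). ATCG00280 held 16043, 16497 and 15947 CPM in WT mock and 12705, 11778 and 12844 for pot1b mock, a change of -0.38 (SE 0.08, adjusted p = 0.0024). None of these 3 overlapped between the groups, and all 3 are among the 6 members with the highest share of counts.

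The remaining 5 lower members changed by -0.29 to -0.37 log2. ATCG00680 fell from 10965 ± 565 to 8571 ± 277 CPM (SD, n = 3), ATCG00270 from 6943 ± 238 to 5471 ± 242, ATCG00330 from 2939 ± 328 to 2412 ± 173, ATCG00800 from 346 ± 27.6 to 268 ± 26.4, and ATCG00810 from 244 ± 4.89 to 193 ± 21.6. Only ATCG00330, of the 11, had overlapping groups. Several of the 11 have neighbouring identifier numbers, such as ATCG00270 and ATCG00280 or ATCG00330 to ATCG00350, while ATCG00680 stands by itself and ATCG00180, between ATCG00170 and ATCG00190, was not called. Whether the called members cluster by position was not tested.

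ATCG00620 and ATCG00070 were higher in pot1b mock. ATCG00620 held 159.8, 153 and 157 CPM in WT mock, 359.9, 215 and 223 for WT Zeocin, 242, 292 and 316 for pot1b mock and 222, 179 and 252 for pot1b Zeocin. The WT mock libraries were the lowest 3, and the change in pot1b mock was 0.85 log2 (SE 0.21, adjusted p = 0.024). ATCG00070 rose from 878 ± 10.3 to 1099 ± 120 CPM (0.32 log2, SE 0.10, adjusted p = 0.03).

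**Figure D2:**
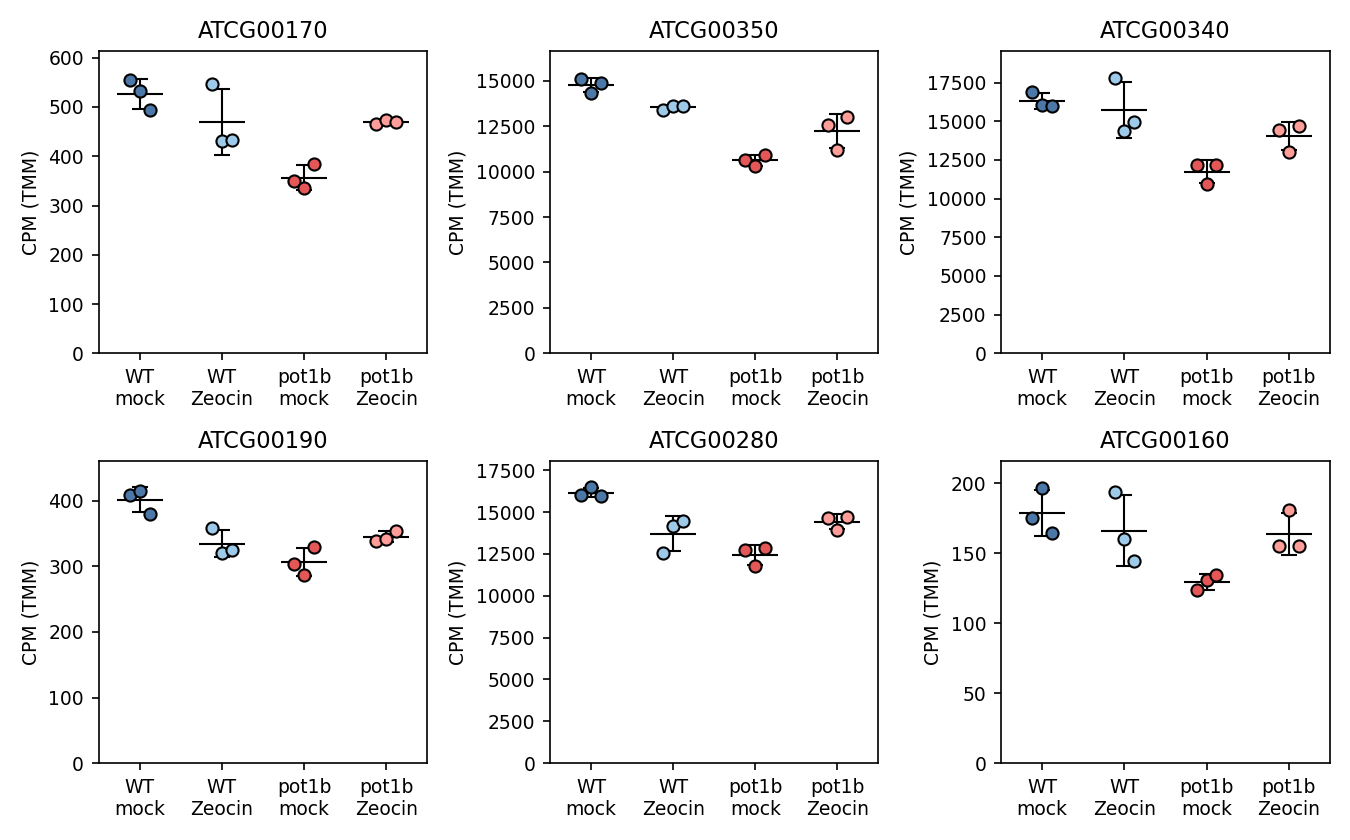
CPM scaled by TMM (linear axes from 0) of the 6 members with the lowest p between pot1b mock and WT mock; points are the 3 libraries of a group in replicate order, with the group mean and SD. In all 6 the pot1b mock libraries lie below the 3 WT mock libraries, as for ATCG00170 at 335 to 384 against 494 to 554 CPM.

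These calls differed in how far they depended on single libraries. Of the 11 lower members, 7 were called whichever library was left out (ATCG00160, ATCG00170, ATCG00190, ATCG00280, ATCG00340, ATCG00350 and ATCG00680), and all 11 were called under each of the 6 other settings tried on this scale. ATCG00270 lost the call without any 1 of the WT mock or pot1b mock libraries (adjusted p up to 0.12), and ATCG00330 without WT mock replicate 2 or 3, any pot1b mock library or pot1b Zeocin replicate 1 (up to 0.21). ATCG00810 lost it without any WT mock library or pot1b mock replicate 1 or 2 (adjusted p up to 0.14), and ATCG00800 without WT mock replicate 1 or pot1b mock replicate 1 or 2 (up to 0.093), while ATCG00620 and ATCG00070 lost it without any 1 of the WT mock libraries or without pot1b mock replicate 2 or 3 (up to 0.077 and 0.19). The number of members called was 8 without any 1 of the WT mock libraries, 7 without pot1b mock replicate 2 and 22 (17 lower and 5 higher) without WT Zeocin replicate 1, which is not in this comparison but enters the shared estimate of the spread.

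As a share of chloroplast counts, rather than of the library, 8 members were lower in pot1b mock and none higher. On this scale 6.52% of all tested genes were called, higher and lower together. For genes outside the chloroplast the scale is a ratio to the chloroplast total, and the median of all tested genes was -0.06 log2. The 8 were ATCG00350 (-0.54 log2, SE 0.11, adjusted p = 0.0024), ATCG00280, ATCG00170, ATCG00270, ATCG00340, ATCG00190, ATCG00680 and ATCG00160, all called lower on the CPM scale too. Of the 6 with the lowest p, ATCG00350 alone was called whichever library was left out, and the other 5 each lost the call without, at least, WT mock replicate 1 or pot1b mock replicate 2 (adjusted p up to 0.19). ATCG00020 makes up so much of the chloroplast total that it weighs on this scale. With it left out of the total, 12 members were called, 7 higher and 5 lower, and with TMM over the chloroplast features 6 were called, 2 higher and 4 lower. Of the 8 members, 5 were among the 12 and 4 were among the 6. ATCG00190, ATCG00270 and ATCG00280 were not among the 6, and ATCG00270 was not among the 12. The remaining losses were of ATCG00680 or ATCG00160. Leave-outs gave 1 call without WT mock replicate 1 or pot1b mock replicate 2, and 4 or 5 without WT mock replicate 2 or 3, pot1b mock replicate 1 or 3 or pot1b Zeocin replicate 1. Without WT Zeocin replicate 1 there were 21.

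Under Zeocin, 7 members were called between pot1b and WT on the CPM scale, all higher, and none of them was among the 13 called under mock. Here 6.55% of all tested genes were called higher and 4.51% lower. The members' median change was 0.14 log2, against 0.01 over all tested genes. That median fell to 0.03 without the library labelled pot1b Zeocin replicate 3 and to 0.07 without WT Zeocin replicate 2, and was 0.22 without pot1b Zeocin replicate 2. The groups did not overlap for 15 members that were higher and 4 that were lower, in all 16.4% of the members. Over all tested genes 14% did not overlap and were higher, and 12% did not overlap and were lower.

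ATCG00030 had the lowest p. It held 960.1, 893 and 878 CPM in WT mock, 963, 833 and 946 for WT Zeocin, 1015, 928 and 1207 for pot1b mock, and 1178, 1251 and 1380.3 for pot1b Zeocin. The pot1b Zeocin libraries were above all 6 WT libraries. The change was 0.47 log2 (SE 0.09, adjusted p = 0.0018), and of the 7 it alone was called whichever library was left out.

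ATCG00210 held 986, 1045 and 934 CPM in WT Zeocin and 1736, 1912 and 1196 for pot1b Zeocin, a change of 0.71 log2 (SE 0.14, adjusted p = 0.0057). The 3 values of pot1b Zeocin were all higher but spread widely, and the call was lost without WT Zeocin replicate 1 (adjusted p = 0.08). ATCG01080 held 429.6, 471 and 620.2 CPM in WT Zeocin and 703, 690.3 and 928 for pot1b Zeocin, a change of 0.61 (SE 0.15, adjusted p = 0.017), lost without WT Zeocin replicate 1 or 2 (adjusted p up to 0.14) and without the filter on low counts. The groups did not overlap in either feature.

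ATCG00500, ATCG00550, ATCG00450 and ATCG00140 changed by 0.34, 0.49, 0.36 and 0.27 log2 in the same comparison. ATCG00140 rose from 3278 ± 82.2 to 3956 ± 136 CPM (SD, n = 3), and ATCG00450, at 2477 to 3239 for WT Zeocin and 3109 to 4089 for pot1b Zeocin, was the 1 of the 7 whose groups overlapped. ATCG00450 and ATCG00550 lost the call without WT Zeocin replicate 1 or 2 or pot1b Zeocin replicate 1 or 3 (adjusted p up to 0.19 and 0.21), and ATCG00550 also without the filter and with limma-voom. ATCG00500 lost it without WT Zeocin replicate 2 or pot1b Zeocin replicate 1 or 3, and ATCG00140 without WT Zeocin replicate 2, pot1b mock replicate 1 or pot1b Zeocin replicate 1 or 2 (adjusted p up to 0.12 in both). The number called was 3 without WT Zeocin replicate 2, 13 without WT Zeocin replicate 3, 16 (15 higher, 1 lower) without WT Zeocin replicate 1, and 7 (5 higher, 2 lower) without the library labelled pot1b Zeocin replicate 3.

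On the share scale 4 members were called between the genotypes under Zeocin, where 5.11% of all tested genes were called. The median of all tested genes on this scale was -0.10 log2 and that of the members was 0.00, so a change printed here lies higher by that shift when set against the other genes. ATCG00560 held 0.106%, 0.115% and 0.159% of the chloroplast counts in WT Zeocin and 0.151%, 0.232% and 0.237% for pot1b Zeocin (0.71 log2, SE 0.19, adjusted p = 0.04). ATCG00210 (0.60, SE 0.17) and ATCG01080 (0.50, SE 0.14) were higher, and ATCG00890 was lower (-0.63, SE 0.17, adjusted p = 0.034). The call was lost without 6 libraries for ATCG00560, 5 for ATCG00890 and 10 each for ATCG00210 and ATCG01080. Leaving out single libraries gave 0 calls (without WT mock replicate 2 or pot1b Zeocin replicate 2), 1 (without pot1b mock replicate 1 or 3 or pot1b Zeocin replicate 1), 2 (without WT mock replicate 1 or WT Zeocin replicate 2) and 8 (without WT Zeocin replicate 1). Without the library labelled pot1b Zeocin replicate 3 there were 4, 2 higher and 2 lower. With TMM over the chloroplast features there were also 2 higher and 2 lower, and ATCG01080 was not among them; ATCG00560 was not called with ATCG00020 left out of the total.

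The 11 members that were lower in pot1b mock were not called between the genotypes under Zeocin, where their changes ran from -0.20 to 0.07 log2, with 7 below 0 and 4 above. By edgeR 0 of the 11 were called and 0 had an unadjusted p under 0.05; DESeq2 and limma-voom also called 0. ATCG00170, for example, changed by 0.00 (SE 0.09) there. This does not show that the genotypes were alike, and the difference between the comparisons is the interaction given further on.

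Zeocin was compared with mock within each genotype. In WT, 2 members were called on the CPM scale, 1 higher and 1 lower, where 3.34% of all tested genes were called higher and 2.65% lower; the members' median change was 0.03 log2 and that of all tested genes was 0.00. The members' median ran from -0.02, without WT Zeocin replicate 1 or 3, through 0.00 without WT mock replicate 2 and 0.08 without WT mock replicate 1, to 0.11 without WT Zeocin replicate 2. Under nuclear scaling 1 member was called, higher. The groups did not overlap for 9 members that were higher and 7 that were lower, in all 13.8% of the members. Over all tested genes 10.9% did not overlap and were higher, and 11.1% did not overlap and were lower. ATCG00840, near the count limit for members, had 8, 4 and 13 counts in WT mock and 20, 19 and 20 for WT Zeocin, a change of 1.35 log2 (SE 0.38, adjusted p = 0.032). It lost the call without WT mock replicate 1 or 2 or WT Zeocin replicate 1 or 2, and was not called by DESeq2. ATCG00190 held 358, 320.1 and 325 CPM in WT Zeocin, below the 379 to 414 of WT mock (-0.26, SE 0.08, adjusted p = 0.049), and it kept the call only without WT Zeocin replicate 1.

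The count in WT was 8 (2 higher, 6 lower) without WT Zeocin replicate 1. It was 0 without WT mock replicate 1 or 2, 1 without WT Zeocin replicate 2 or 3, pot1b mock replicate 2 or 3 or pot1b Zeocin replicate 1, and 4 without pot1b Zeocin replicate 2 or 3. On the share scale 3 members were higher in WT Zeocin, ATCG00890 (0.78 log2, SE 0.17, adjusted p = 0.0078), ATCG01280 (1.49, SE 0.31, adjusted p = 0.011) and ATCG00840 (1.41, SE 0.39, adjusted p = 0.049). Of all tested genes 3.05% were called there, higher and lower together. ATCG00890 held 8.40, 8.42 and 9.69 CPM in WT mock and 12.3, 12.8 and 18.5 for WT Zeocin, so all 3 treated libraries were above the untreated ones; the call was lost without WT mock replicate 1 or 2 or WT Zeocin replicate 3 (adjusted p up to 0.06). ATCG01280 held 1.90, 1.90 and 4.13 CPM in WT mock and 7.32, 6.91 and 7.60 for WT Zeocin, and its call was lost without WT mock replicate 1 or WT Zeocin replicate 1 or 3 (adjusted p up to 0.12) and with TMM over the chloroplast features. ATCG00840 lost its call on this scale without 10 of the 12 libraries (adjusted p up to 0.31). RefSeq lists 7 plastid protein symbols more than once, and whether these 3 members are among them is not known here. The treatment of reads that match several places is not given either, so their low counts are uncertain. The share-scale count was 0 without WT mock replicate 1, 1 without WT mock replicate 2 or WT Zeocin replicate 3, 5 without pot1b Zeocin replicate 2 and 8 without WT Zeocin replicate 1.

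In pot1b, Zeocin left 96 of 116 members above 0 and 20 below, with a median change of 0.14 log2 against 0.00 over all tested genes. The median was 0.09 without pot1b mock replicate 2 or the library labelled pot1b Zeocin replicate 3, without which 74 members were above 0 and 42 below, and 0.23 without pot1b mock replicate 3. The groups did not overlap for 21 members that were higher (18.1%), against 12.6% of all tested genes, and for none that were lower, against 12.7%. At this threshold 3 members were called, all higher, where 3.7% of all tested genes were called higher and 3% lower, and 18 had an unadjusted p under 0.05. The 3 were ATCG00170 (from 356 ± 25.1 to 469.6 ± 4.38 CPM, 0.40 log2, SE 0.09, adjusted p = 0.0064), ATCG00800 (from 268 ± 26.4 to 347 ± 30.1, 0.37, SE 0.10, adjusted p = 0.015) and ATCG00160 (from 129.6 ± 5.64 to 164 ± 14.9, 0.34, SE 0.10, adjusted p = 0.041).

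All 3 belong to the 11 that were lower in untreated pot1b, and all 11 had changes above 0 with Zeocin in pot1b, from 0.12 to 0.40 log2. The comparisons share the pot1b mock libraries, so these values are not independent of each other. In WT, 10 of the 11 had changes below 0 with Zeocin, from -0.26 to 0.04. The comparison that chose the 11 holds the WT mock libraries too. The signs in neither genotype are therefore independent of that choice. ATCG00170 lost the call in pot1b without pot1b mock replicate 2 (adjusted p = 0.058), ATCG00800 without pot1b mock replicate 1 or 2 or pot1b Zeocin replicate 3 (up to 0.12), and ATCG00160 without WT mock replicate 1, WT Zeocin replicate 2 or any 1 of the pot1b libraries (up to 0.22). The number called was 0 without pot1b mock replicate 2, 1 without pot1b mock replicate 1 or the library labelled pot1b Zeocin replicate 3, 5 without WT Zeocin replicate 3 or pot1b Zeocin replicate 1, 6 without pot1b mock replicate 3, and 13, all higher, without WT Zeocin replicate 1.

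On the share scale 1 member was called with Zeocin in pot1b, where 3.55% of all tested genes were. ATCG00300 took 0.0735%, 0.0682% and 0.0820% of the chloroplast counts in pot1b mock and 0.0889%, 0.105% and 0.114% for pot1b Zeocin, with no overlap (0.46 log2, SE 0.12, adjusted p = 0.03). It was not called with ATCG00020 left out of the total or with TMM over the chloroplast features (adjusted p up to 0.31), where 1 other member was called, lower. It also lost the call without WT mock replicate 2, pot1b mock replicate 1 or 2, or pot1b Zeocin replicate 2 or 3. Without WT Zeocin replicate 1 there were 10 calls, and 2 without WT Zeocin replicate 3, pot1b mock replicate 3 or pot1b Zeocin replicate 1.

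**Figure D3:**
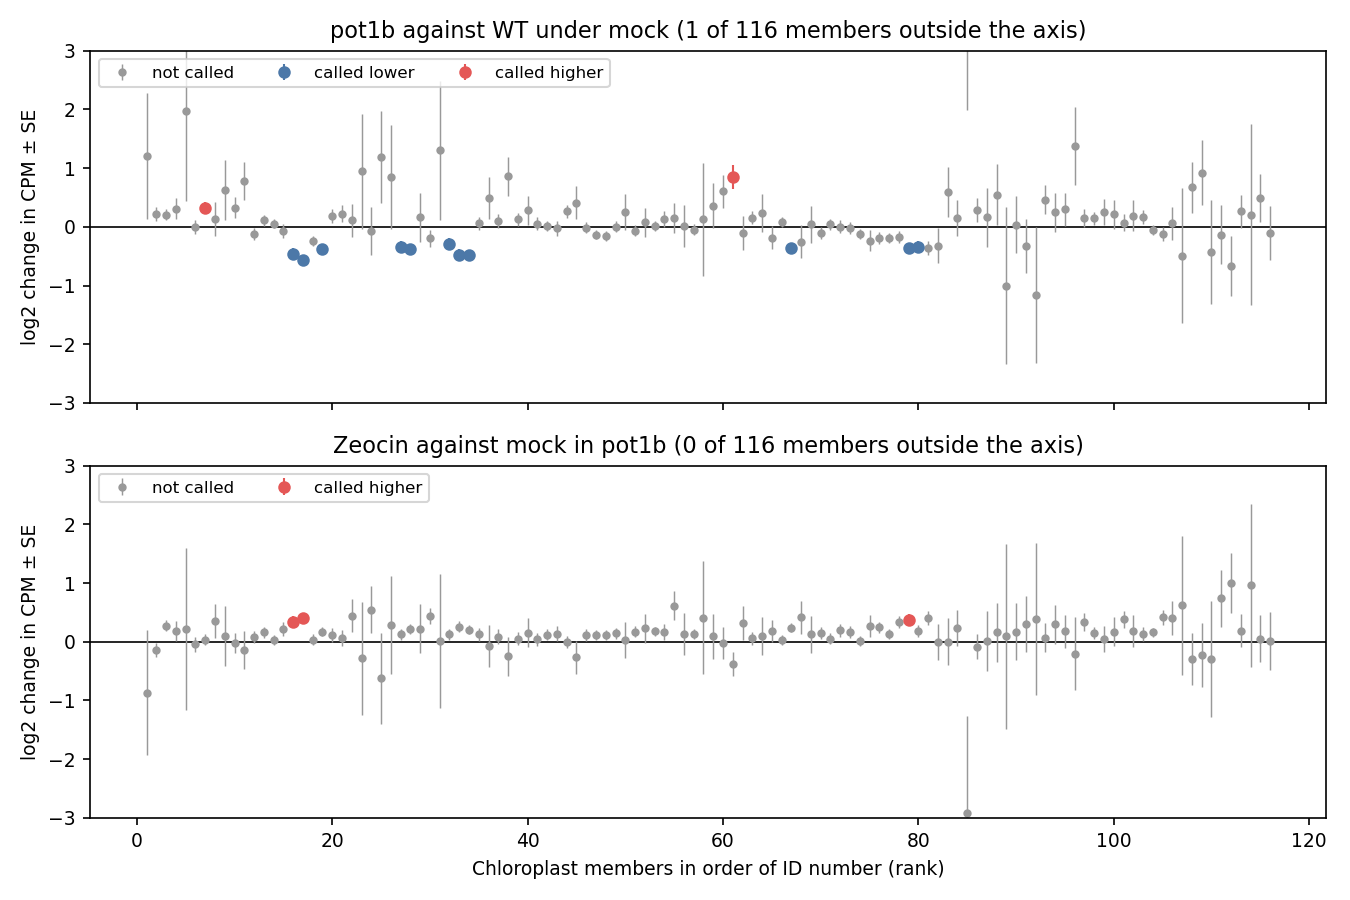
Log2 change in CPM with its SE for the 116 members in order of identifier number, for pot1b against WT under mock (top) and Zeocin against mock in pot1b (bottom), which share the pot1b mock libraries; grey points were not called, and each title gives the members outside the axis. The 11 called lower in the top panel, changed by -0.29 to -0.56, and 96 of 116 members are above 0 in the bottom panel.

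The Zeocin effect differed between the genotypes for 1 member, ATCG00170, where 0.378% of all tested genes were called with a positive and 0.373% with a negative difference. Its change with Zeocin was higher in pot1b than in WT by 0.56 log2 (SE 0.13, adjusted p = 0.037), and 24 members had an unadjusted p under 0.05. It kept this call only without WT Zeocin replicate 1 (0.68 log2); without any other library the adjusted p was up to 0.16. The number of members called was 17 (14 positive and 3 negative) without WT Zeocin replicate 1, and 0 without any 1 of the WT mock or pot1b mock libraries, WT Zeocin replicate 2, or pot1b Zeocin replicate 1 or 2. ATCG00620 had a difference of -1.14 log2 that was not called (SE 0.29, adjusted p = 0.16). On the share scale edgeR called 0 members, where 0.0765% of all tested genes were called, with 11 at an unadjusted p under 0.05. With ATCG00020 left out of the total, 2 were called, with TMM over the chloroplast features 1, and without WT Zeocin replicate 1 there were 9.

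The 6 members with a product name in RefSeq were not called in any of the 5 contrasts on the CPM scale, by edgeR, DESeq2 or limma-voom, and 0 had an unadjusted p under 0.05. ATCG00670, the plastid-encoded subunit of the Clp protease, which degrades stromal proteins, stood at 1812 to 2310 CPM over the 12 libraries. ATCG00430 stood at 790.2 to 1036 CPM and ATCG00530, a CemA-like envelope protein, at 725 to 1481. A RefSeq note on protein matches calls ATCG00430 photosystem II reaction center protein G, and this name was not checked. The ribosomal protein genes ATCG00750 (S11) and ATCG00660 (L20) stood at 200.4 to 265 and 167 to 287 CPM. ATCG01310 (ribosomal protein L2), at 0.526 to 2.46 CPM, is uncertain: its gene is listed more than once in the plastid annotation, and the treatment of reads that match several places is not given in the sources used here.

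The median spread between replicates was larger for the chloroplast members than for all tested genes, but the members differed widely in it. The SD between replicates within a group had a median of 0.245 log2 over the members, against 0.185 over all tested genes, and 12 members (10.3%) exceeded 1 log2, against 0.638% of tested genes. At the other end 50 members were below 0.2, the lowest being ATCG00680 (0.0533), ATCG00350 (0.0634) and ATCG00280 (0.0700).

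The most variable was ATCG00880, with 2, 6 and 64 counts in WT mock, 7, 232 and 60 for WT Zeocin, 48, 24 and 657 for pot1b mock and 30, 1 and 58 for pot1b Zeocin. Its fitted change in pot1b mock was 3.70 log2 with an SE of 1.71 (adjusted p = 0.22), a large value that did not exceed the spread. ATCG00060 (47, 28 and 262 counts in WT mock, 95, 26 and 969 for pot1b Zeocin) and ATCG00010 (457, 634 and 2653 counts in WT mock, 1004, 251 and 2314 for pot1b Zeocin) were high in replicate 3. ATCG00920 was instead high in replicate 1, with 182, 5 and 11 counts in WT mock and 55, 5 and 8 for pot1b Zeocin. ATCG00590, a feature with many more counts, ranged from 482 to 10317 with an SD of 1.31 log2.

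**Figure D4:**
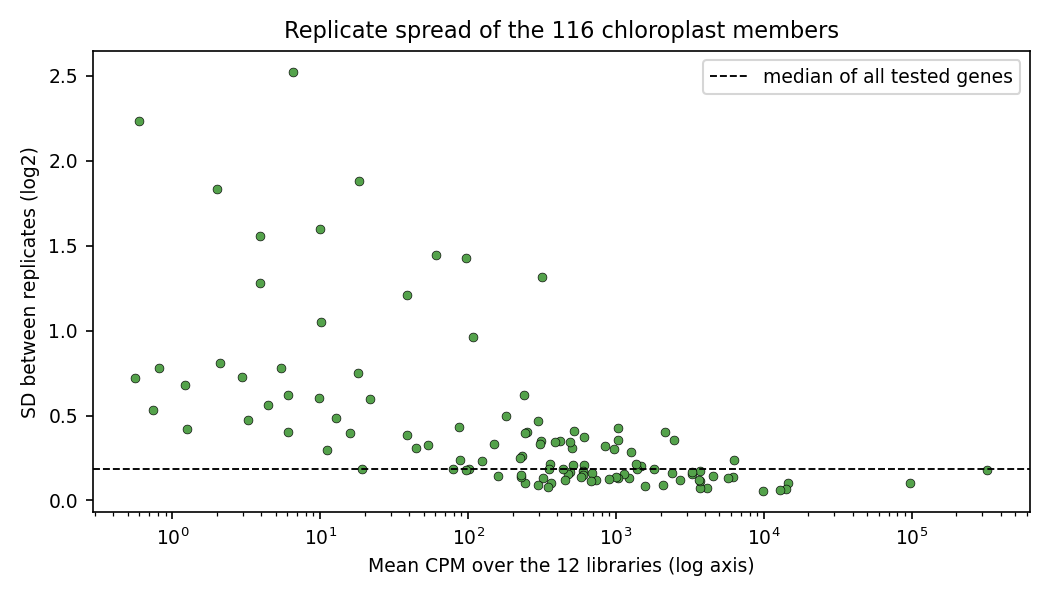
SD between replicates within a group of each of the 116 members against its mean CPM over the 12 libraries (log axis). The SD is of log2 CPM, with 0.5 added to each count before scaling. The dashed line is the median of all tested genes, 0.185. The 12 members above 1 all have a mean of 314 CPM or less. Among abundant members, ATCG00680, ATCG00350 and ATCG00280 lie below the line. ATCG00700, at 1387 to 3124 CPM in pot1b Zeocin, lies above it.

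Of 39 nuclear genes for plastid transcription, nucleoids and RNA stability, all tested, 3 were called higher in pot1b mock than in WT mock, where 7.25% of all tested genes were. Under Zeocin 2 were higher and 2 lower in pot1b, beside 6.55% and 4.51% of all tested genes, and 1 was lower with Zeocin in pot1b, beside 3%. SIGE, a sigma factor of the plastid RNA polymerase, known to respond to blue light and stress, held 3.29, 2.11 and 3.47 CPM in WT mock, 3.29, 2.25 and 2.35 for WT Zeocin, 5.66, 6.40 and 4.91 for pot1b mock, and 3.74, 2.45 and 2.40 for pot1b Zeocin. All 3 pot1b mock libraries were above the other 9. It was higher in pot1b mock (0.87 log2, SE 0.19, adjusted p = 0.0033) and lower with Zeocin in pot1b (-0.96, SE 0.20, adjusted p = 0.0033), and both calls held without each single library and under the other 6 settings. These 2 comparisons share the pot1b mock libraries, and whether SIGE bears on the chloroplast members was not tested.

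CRB, a chloroplast RNA-binding protein, rose from 105 ± 0.618 to 128 ± 3.00 CPM (SD, n = 3) between WT mock and pot1b mock (0.28 log2, SE 0.07, adjusted p = 0.012, lost without WT mock replicate 1 or pot1b mock replicate 1) and from 90.8 ± 6.19 to 115 ± 6.82 under Zeocin (0.34, SE 0.07, adjusted p = 0.0042). WHY1, a single-stranded DNA-binding protein of plastid nucleoids, was higher in pot1b mock by 0.56 log2 (SE 0.19, adjusted p = 0.0498), a call lost without any 1 of the WT mock or pot1b mock libraries or pot1b Zeocin replicate 1 or 3 (adjusted p up to 0.23) and by DESeq2 and limma-voom. Under Zeocin PTAC7, a protein bound to the plastid polymerase, was higher in the mutant (from 6.91 ± 0.298 to 10.3 ± 0.815 CPM, 0.58, SE 0.13, adjusted p = 0.0056). The sigma factors SIG4 and SIGC were lower there (-0.60 and -0.58 log2, adjusted p = 0.026 and 0.035); both calls were lost without WT Zeocin replicate 1 or pot1b Zeocin replicate 2 or 3 and with limma-voom, that of SIG4 also without pot1b Zeocin replicate 1 and that of SIGC also with DESeq2. CRB, SIG4, SIGC and PTAC7 each overlap another annotated gene, so their values are uncertain. By edgeR 0 of the 39 were called with Zeocin in WT (5 at an unadjusted p under 0.05) and 0 in the interaction (1 at an unadjusted p under 0.05); DESeq2 and limma-voom also called 0 in both.

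**Figure D5:**
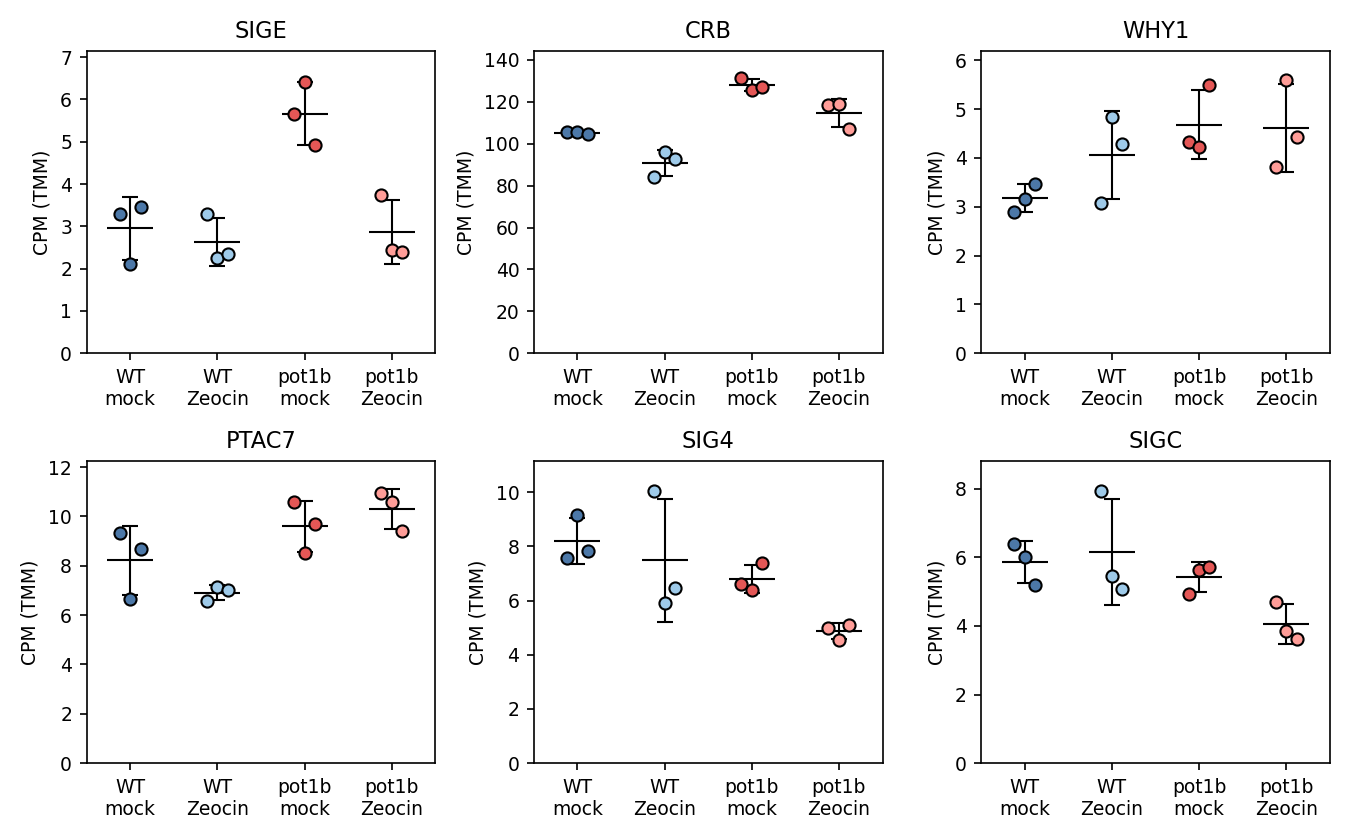
CPM scaled by TMM (linear axes from 0) of the 6 nuclear genes of plastid gene expression that were called in a comparison; points are the 3 libraries of a group in replicate order, with the group mean and SD. SIGE is highest in the 3 pot1b mock libraries, at 4.91 to 6.40 CPM, and CRB is higher in pot1b than in WT under both treatments.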

How the data were processed

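The authors deposited raw read counts per gene, 1 table per library. Per the submitters' processing notes, reads were handled with Trim Galore, HISAT2 and featureCounts on TAIR10, and limma was named; versions, the strand setting and the treatment of multiply matching reads are not given in the sources used here.

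The tests used edgeR 4.0.16 (R 4.3.3). Features with low counts were removed by filterByExpr (minimum count 10; 19596 kept, 14666 removed), libraries were scaled by TMM, and the 4 groups were fitted in 1 robust quasi-likelihood model over the 12 libraries (8 residual degrees of freedom; coefficient of variation between replicates 11.0%). Adjusted p-values are Benjamini-Hochberg values over the 19596 genes, and calls are at adjusted p under 0.05. The share scale is the same fit with the chloroplast total as library size. Percentages were compared by exact permutation tests. Alternatives were DESeq2 1.42.0, limma-voom (limma 3.58.1), DESeq2 size factors, nuclear scaling, no filter, other chloroplast totals, a replicate block and leaving out each library. The main model holds no replicate term, and with the block more members were called on the CPM scale in every contrast. The scripts were tested on simulated data.

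Values per library are given for the 6 members with the highest share and, in each contrast and on each scale, up to 6 called members with the lowest p. A further part of this rule, by role, could not be applied, because the sources used here name the product of 6 members only; the plan's percentage for psbA is given as that of ATCG00020, the feature with the most counts. Members and lists were chosen with earlier results of these data known. Other called members, the most variable members and ATCG00620 in the interaction were named after their values were seen. RefSeq names are from TAIR10.1, another assembly than that of the counts, so no coordinates or sequences are given.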

Additional observations from a re-analysis of the deposited data

Results flagged for a closer look

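ATCG00170 responded to Zeocin differently in the 2 genotypes: the effect in pot1b minus that in WT was 0.56 log2 (SE 0.13, edgeR adjusted p = 0.037), with a change of 0.40 in pot1b. This difference between the groups' effects was lost without each of 11 of the 12 libraries, all but WT Zeocin replicate 1.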

How the results depend on the processing

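On the CPM scale, members called with Zeocin in WT numbered 1 under nuclear scaling, 7 with DESeq2 and 4 with limma-voom (2 in the report), and with Zeocin in pot1b 8 with DESeq2 (3). In the interaction they numbered 2 without the filter, 5 with DESeq2 and 3 with limma-voom (1). As a share of chloroplast counts without ATCG00020, Zeocin in pot1b gave 0 (1) and the interaction 2 (0); TMM over the chloroplast features gave 1 in the interaction. The cause of these differences was not tested.

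With the replicate number as a block, calls on the CPM scale numbered 6 and 11 with Zeocin in WT and pot1b, 25 and 18 for pot1b against WT under mock and Zeocin, and 7 in the interaction; on the share scale they were 3, 4, 15, 8 and 0 in that order. Over all tested genes, on which the fit runs, same-numbered libraries of different groups deviated together only in part. There 12 of 18 pairs had a correlation above 0.1 (-0.04 to 0.41). Those of replicate 3 ran from 0.28 to 0.41. The rule used here takes the numbers as pairs only where every pair of a comparison exceeds 0.1, so the main fit holds no block. This does not show that libraries of the same number are independent. With the block more members were called on the CPM scale in every contrast, and all main calls on that scale were kept. Over the members 16 of 18 pairs were above 0.1 (-0.20 to 0.90, median 0.59). Over the members alone all 3 pairs were above 0.1 in 3 of the comparisons, the exception being pot1b against WT under Zeocin. The block cannot move the percentages' differences, because every group holds each replicate number once. Its exact sign-flip p-values were 0.1875 and 0.125 for ATCG00020 (Zeocin minus mock, pot1b minus WT) and 0.8125 and 0.375 for the chloroplast share.

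Leaving out single libraries gave 0 to 8 calls with Zeocin in WT, 0 to 13 in pot1b, 7 to 22 for pot1b under mock, 3 to 16 under Zeocin and 0 to 17 in the interaction (CPM), and 0 to 8, 0 to 10, 1 to 21, 0 to 8 and 0 to 9 on the share scale. The chloroplast share moved from -0.303 to 0.866 (Zeocin minus mock) and 0.142 to 1.31 (pot1b minus WT) percentage points, and ATCG00020 from -3.30 to -1.24 and 2.50 to 4.57. Over the called members named by rule and all alternatives, leave-outs included, 401 values kept their side of the threshold, 133 did not and 0 changed direction. The percentages without ribosomal and transfer RNA genes were not run, because the members' classes are not known here. Depth limits the 31 members below 0.01% of chloroplast counts.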

Other observations

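Some chloroplast members followed the replicate number rather than the group. Of the 116 members, 21 (18.1%) were highest in replicate 3 in all 4 groups, against 4.58% of all tested genes, and 10 (8.62%) were highest in replicate 1 in all 4 groups, against 2.57%. For replicate 2 the count was 0, against 2.03% of tested genes. Those highest in replicate 3 included ATCG00590, ATCG00010, ATCG00320 and ATCG00060, and those highest in replicate 1 included ATCG00920, ATCG00950, ATCG01180 and ATCG01210, all 8 among the most variable members. ATCG00680, called lower in pot1b mock, was also highest in replicate 1 in every group. These members were named after their values were seen, and the labels do not say what a replicate number stands for.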
